A study of Mus musculus with 3 samples.

Results

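The genes described here are 50 non-collagen genes of the interstitial extracellular matrix, taken by name from the 28084 gene names printed on the array. They fall into 6 role groups: 11 genes of microfibrils and elastic fibres, 4 EMILINs and multimerins, 9 small leucine-rich proteoglycans, 6 genes of hyaluronan and its large proteoglycans, 10 adhesive and matricellular proteins, and 10 other matrix glycoproteins. The values that follow come from 3 single-colour Agilent arrays of stromal cells sorted from the mesenteric lymph node of wild type C57BL/6NCrl mice. The first array holds fibroblastic reticular cells (FRC, gp38+ CD31-), which lay down the fibre network of the node. The second holds lymphatic endothelial cells (LEC, gp38+ CD31+) and the third blood endothelial cells (BEC, gp38- CD31+). The labels give no treatment, no age, and no number of mice or sorts behind each RNA.

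The labels describe cells depleted of CD45-bearing leukocytes, sorted without CD45 and CD24, with a mean purity of 88% ± 1.5 (the kind of error is not given). With 1 array per population there are no replicates, so no test, p-value or error over samples can be given. Repeat spots of 1 probe on 1 array measure only the spotting and the scan: over the probes printed 10 times and well above background, their median SD was 0.0539 log2 units for FRC, 0.0537 for LEC and 0.0576 for BEC. A level below is the log2 signal of a gene's brightest probe minus the 75th percentile of its array. It compares the arrays for 1 gene and says nothing of 1 gene against another. A gene was called different at 4-fold or more. Where the dimmer side was not well above background, the fold is a lower bound against the lowest signal well above background on that array, and is written as "at least". In sorted bulk RNA, fewer cells that make a transcript and less of it per cell cannot be told apart.

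The interstitial matrix between cells is built from fibrils and from the proteins that coat, space and link them. Fibrillins form microfibrils on which elastin is laid down with the help of fibulins, while small leucine-rich proteoglycans bind collagen fibrils and control their width. Hyaluronan and the proteoglycans that bind it hold water, and matricellular proteins such as tenascins, periostin and thrombospondins tune adhesion. In lymph nodes, FRC wrap the collagen-rich conduits that carry fluid and small antigens, and the endothelial cells rest on their own basement membranes.

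Defining markers of each population were mostly highest on its array, with exceptions. Pdgfra, a receptor typical of fibroblasts, had a level of 5.14 in FRC, -0.86 in LEC and -2.82 in BEC. Prox1, the transcription factor of lymphatic identity, read -3.56 in FRC, 3.53 in LEC and -0.51 in BEC. Of the 6 LEC-like markers, 4 were well above background in FRC and all 6 in LEC and in BEC, but their summed signal was lowest in LEC: 406 times the 75th percentile in FRC, 199 times in LEC and 462 times in BEC. Ccl21a, a chemokine gene on that list, was lowest in LEC, with 8.66 in FRC, 6.02 in LEC and 8.82 in BEC. Vwf, made by blood endothelium, read -0.32 in FRC, 2.49 in LEC and 6.41 in BEC. Pecam1, which encodes CD31, followed the gate with -4.06 in FRC, 2.33 in LEC and 4.02 in BEC. Pdpn, which encodes gp38, read -0.83 in FRC, -1.19 in LEC and -3.81 in BEC. Cd24a, whose product the sort avoided, was well above background on all 3 arrays, with 1.61 in FRC, 3.40 in LEC and 3.89 in BEC. The leukocyte gene Ptprc was too, with -2.36 in FRC, -1.57 in LEC and 0.23 in BEC. All 8 FRC-like markers were well above background on all 3 arrays, with a summed signal of 1438 times the 75th percentile in FRC, 76.2 times in LEC and 32.0 times in BEC.

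Most of the 50 matrix genes were highest in FRC. Signal well above background was found for 47 of them in FRC, 45 in LEC and 39 in BEC. On at least 1 array it was found for 48. Ncan and Hapln1 were well above background on none. Among the 48, the FRC array was the highest for 39, the LEC array for 7 and the BEC array for 2. Over all 19139 genes detected on any array, FRC were highest for 34.4%, LEC for 26.9% and BEC for 38.6%. BEC were also the lowest array for 37 of the 48, against 30.5% of all detected genes.

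Against LEC, 31 of the 50 were at least 4-fold higher in FRC, where 5.93% of the 18441 genes compared were. In LEC, 5 were at least 4-fold higher (Mmrn1, Mmrn2, Tnc, Coch and Reln), where 4.89% of all genes were. The median difference over the 48 members that could be compared was 3.05 on the log2 scale, and 2.83 without the 4 given as bounds, against -0.02 over all genes.

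Against BEC, 38 of the 50 were at least 4-fold higher in FRC, beside 7.57% of the 18833 genes compared. The 3 members at least 4-fold higher in BEC were Mmrn1, Mmrn2 and Reln. That is 3 of the 48 members compared, close to the 6.58% of all genes compared. The median over 48 members was 3.87, and 3.35 without 10 bounds, against -0.09 over all genes.

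Between the endothelia the difference was smaller and leaned to LEC. In LEC, 13 of the 50 were at least 4-fold higher than in BEC, beside 3.39% of the 18325 genes compared. Fbln2 and Aspn were at least 4-fold higher in BEC, which is 2 of the 45 members compared, beside 3.38% of all genes compared. The median over 45 members was 1.30, against -0.07 over all genes.

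**Figure D1:**
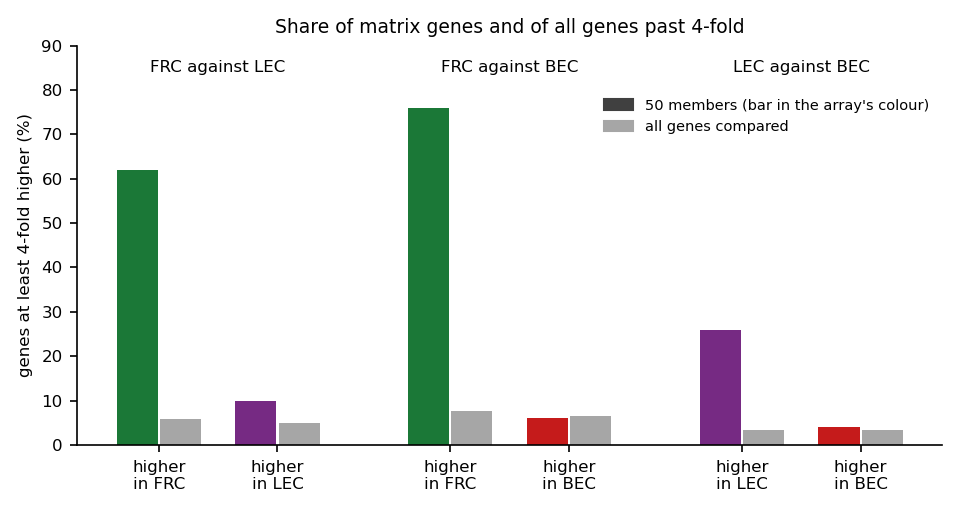
Bars give the share of genes at least 4-fold higher (percent, vertical axis) in each direction of the 3 comparisons, for the 50 matrix genes and for all genes compared. The members' shares of 62% (FRC over LEC) and 76% (FRC over BEC) stand above the 5.93% and 7.57% of all genes. Their shares in the other directions lie between 4% and 26%. Members' shares are of all 50, of which 48 could be compared for FRC against LEC and against BEC, and 45 for LEC against BEC.

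Taking both comparisons, 29 members were at least 4-fold higher in FRC than in LEC and in BEC, a pattern shown by 4.50% of all detected genes. Another 8 passed 4-fold over BEC alone (Mfap2, Emilin1, Bgn, Fn1, Postn, Thbs4, Spp1 and Matn4), beside 2.93% of all detected genes. Fbln2 and Fbln5 passed over LEC alone, beside 1.19%. Mmrn1, Mmrn2 and Reln passed 4-fold in both endothelia over FRC, beside 3.05% of all detected genes. Tnc passed 4-fold in LEC over FRC alone, beside 1.65%. Coch passed 4-fold in LEC over FRC and again in FRC over BEC, an order found for 4 genes on the whole array. Eln, Prelp, Acan and Thbs1 were detected and passed 4-fold in neither comparison with FRC. Of all detected genes, 82.1% passed 4-fold in no comparison.

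**Figure D2:**
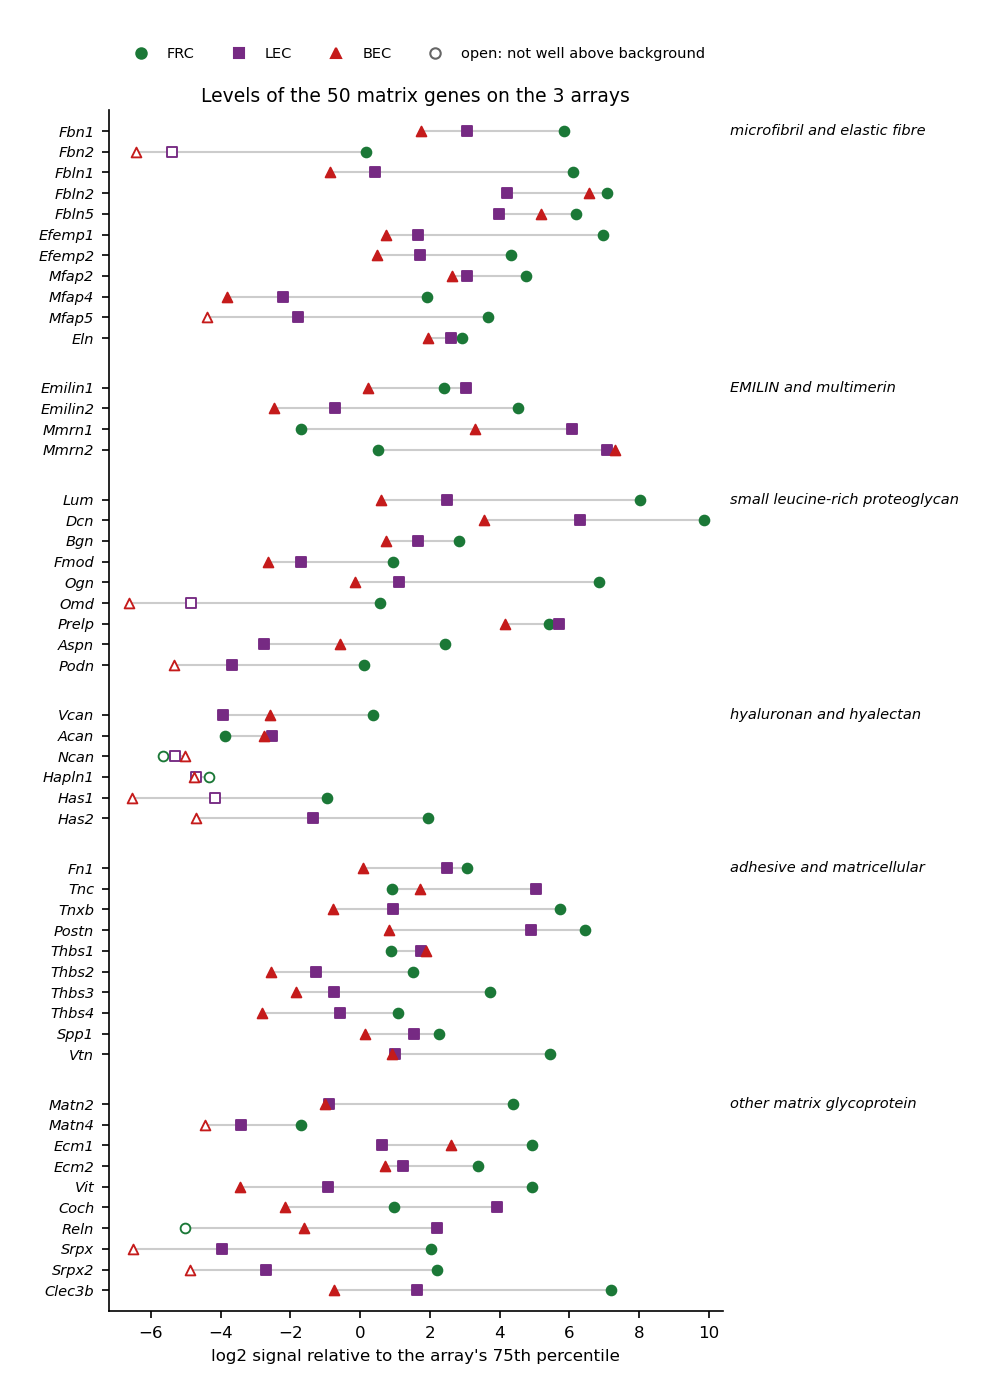
Each row is 1 of the 50 matrix genes, grouped by role, and the horizontal axis is its level, the log2 signal relative to the array's 75th percentile, in FRC, LEC and BEC (1 array each, no error bars). Open symbols are signals not well above background; FRC lie farthest right in 39 of the 48 rows with a signal well above background, and Mmrn1, Mmrn2 and Reln run the other way.

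Of 11 microfibril and elastic fibre genes, 9 were at least 4-fold higher in FRC than in LEC, beside 5.93% of all genes. Against BEC, 8 of the 11 were, beside 7.57%. None was at least 4-fold higher in either endothelium than in FRC. Fbn1, the main fibrillin of adult microfibrils, had a level of 5.84 in FRC, 3.05 in LEC and 1.75 in BEC, 6.88-fold higher in FRC than in LEC and 16.9-fold higher than in BEC. Fbn2, the fibrillin known for its role in development, had 0.18 in FRC and was not well above background in LEC or BEC, a difference of at least 20.7-fold over LEC and at least 23.5-fold over BEC. So both fibrillins were highest in FRC, and Fbn1 was also measured in both endothelia.

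The fibulins split by family member. Fbln1, a fibulin that binds fibronectin and basement membrane proteins, read 6.10 in FRC, 0.44 in LEC and -0.86 in BEC, 50.3-fold over LEC and 124-fold over BEC. Efemp1 read 6.96 in FRC, 1.68 in LEC and 0.73 in BEC, 38.9-fold over LEC and 74.7-fold over BEC. Efemp2, needed to bring lysyl oxidase to elastin, read 4.33 in FRC, 1.71 in LEC and 0.50 in BEC, 6.12-fold over LEC and 14.2-fold over BEC. These 3 were lowest in BEC, but Fbln2 and Fbln5 were lowest in LEC. Fbln2 read 7.09 in FRC, 4.22 in LEC and 6.56 in BEC: FRC were 7.31-fold over LEC but 1.44-fold over BEC. Fbln5, a fibulin that binds elastin and integrins, read 6.20 in FRC, 3.97 in LEC and 5.20 in BEC, 4.69-fold over LEC and 2.01-fold over BEC. Fbln2 was 5.08-fold lower in LEC than in BEC, and Fbln5 2.34-fold lower.

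The microfibril-associated proteins were likewise highest in FRC. Mfap5 read 3.66 in FRC and -1.77 in LEC, a 43.3-fold difference, and was not well above background in BEC, at least 263-fold below FRC. Mfap4 read 1.93 in FRC, -2.20 in LEC and -3.83 in BEC, 17.6-fold over LEC and 54.1-fold over BEC. Mfap2 read 4.77 in FRC, 3.06 in LEC and 2.64 in BEC, 3.29-fold over LEC and 4.39-fold over BEC, so it passed the threshold over BEC alone. Eln, elastin itself, differed little: 2.92 in FRC, 2.61 in LEC and 1.94 in BEC, 1.25-fold over LEC and 1.97-fold over BEC.

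Among 16 measured partners of elastic fibre assembly outside the 50 genes, 4 were at least 4-fold higher in FRC than in LEC. In LEC 1 was, Ltbp2, 5.67-fold over FRC. By sign, 10 of the 16 were higher in FRC than in LEC and 6 in LEC. The median difference was 0.56 on the log2 scale. The shares of all genes were 5.93% and 4.89%. Against BEC, 7 were at least 4-fold higher in FRC and none in BEC, beside 7.57% and 6.58% of all genes. Loxl1, a lysyl oxidase that crosslinks elastin, read 6.06 in FRC, 0.42 in LEC and -1.09 in BEC, 49.9-fold over LEC and 143-fold over BEC. Fbln7, a further fibulin, was 14.3-fold higher in FRC than in LEC and 51.8-fold higher than in BEC. Lox, the founding lysyl oxidase, was 6.56-fold higher in FRC than in LEC. Loxl2 was 14.1-fold higher in FRC than in BEC and 8.29-fold higher in LEC than in BEC. For FRC against LEC and against BEC, Lox, Loxl1 and Loxl2 each differed more than the Eln probe did.

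The 4 EMILINs and multimerins share a cysteine-rich EMI domain and went in opposite directions. Emilin2 read 4.53 in FRC, -0.71 in LEC and -2.45 in BEC, 38.0-fold over LEC and 127-fold over BEC. Emilin1, which lies at the surface of elastic fibres and in lymphatic anchoring filaments, read 2.41 in FRC, 3.05 in LEC and 0.22 in BEC. FRC and LEC differed 1.56-fold for Emilin1, with LEC higher, while BEC lay 4.55-fold below FRC and 7.09-fold below LEC. The EMILINs were thus lowest in BEC, unlike both multimerins.

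Mmrn1, a protein stored in platelets and endothelial cells that binds coagulation factor V, read -1.69 in FRC, 6.08 in LEC and 3.30 in BEC. LEC were 218-fold over FRC, BEC were 31.8-fold over FRC, and LEC were 6.87-fold over BEC. Mmrn2, an endothelial matrix protein bound by the receptors CD93 and CLEC14A, read 0.52 in FRC, 7.07 in LEC and 7.32 in BEC. LEC were 93.9-fold over FRC and BEC 111-fold, while LEC and BEC lay within 1.19-fold of each other. The summed signal of 5 markers of platelets and megakaryocytes was also higher in the endothelia, at 2.75 times the 75th percentile in FRC, 20.8 times in LEC and 8.93 times in BEC. Well above background were 3 of the 5 in FRC, 4 in LEC and 4 in BEC. Their part in the Mmrn1 values was not tested. Ppbp and Gp1ba were not well above background in FRC, Gp9 in LEC, and Gp1ba in BEC. Gp9 ran against the sum and was highest in FRC, with -2.55 there, at least 3.14-fold over LEC, against -4.19 in BEC. Ppbp was 4.63-fold higher in BEC than in LEC, the reverse of Mmrn1. Itga2b was 31.4-fold higher in LEC than in BEC, so the markers did not share 1 order.

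Of the 9 small leucine-rich proteoglycans, 7 were at least 4-fold higher in FRC than in LEC, beside 5.93% of all genes. Against BEC, 8 of the 9 were, beside 7.57%. None was at least 4-fold higher in an endothelial population than in FRC. Lum, lumican, a keratan sulphate proteoglycan that spaces collagen fibrils, read 8.02 in FRC, 2.49 in LEC and 0.59 in BEC, 46.3-fold over LEC and 172-fold over BEC. Dcn, decorin, which binds collagen and TGF-beta, read 9.87 in FRC, 6.32 in LEC and 3.54 in BEC, 11.7-fold over LEC and 80.3-fold over BEC. Fmod, fibromodulin, read 0.96 in FRC, -1.69 in LEC and -2.63 in BEC, 6.28-fold over LEC and 12.0-fold over BEC. These 3 kept 1 order, FRC over LEC over BEC.

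Bgn, biglycan, the closest relative of decorin, differed much less: 2.83 in FRC, 1.65 in LEC and 0.75 in BEC, 2.26-fold over LEC and 4.21-fold over BEC. Podn, podocan, read 0.10 in FRC and -3.66 in LEC, a 13.6-fold difference, and was not well above background in BEC, at least 22.3-fold below FRC. The LEC intensity of Podn, 21.1, was near the lowest one well above background, 14.6. Over the alternative scalings and background correction, its FRC minus LEC difference ran from 2.07 to 4.29. Prelp, which anchors to the heparan sulphate of perlecan, read 5.42 in FRC, 5.70 in LEC and 4.17 in BEC, with LEC 1.21-fold over FRC and FRC 2.38-fold over BEC. Prelp was therefore the 1 small proteoglycan of the 9 that passed 4-fold in no comparison.

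Ogn, Omd, Aspn and the matrix glycoprotein gene Ecm2 lie side by side on chromosome 13. Their brightest probes span 94.0 kb, from chr13:49625632-49625691 (Ecm2) through chr13:49662479-49662538 (Aspn) and chr13:49687847-49687906 (Omd) to chr13:49719549-49719608 (Ogn), in the array's mm9 coordinates. Exon and UTR annotation of that build was not used here. Ogn, osteoglycin, read 6.85 in FRC, 1.11 in LEC and -0.16 in BEC, 53.4-fold over LEC and 129-fold over BEC. Omd, osteomodulin, read 0.57 in FRC and was not well above background in either endothelium, at least 27.2-fold below FRC in LEC and at least 30.8-fold below in BEC. Aspn, asporin, read 2.43 in FRC, -2.74 in LEC and -0.58 in BEC, 36.0-fold over LEC and 8.04-fold over BEC. Ecm2 read 3.39 in FRC, 1.24 in LEC and 0.72 in BEC, 4.44-fold over LEC and 6.35-fold over BEC.

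All 4 neighbours were thus at least 4-fold higher in FRC than in both endothelia. Within 250 kb on either side of them the array names 12 other genes or transcripts, 8 of them well above background on some array. None of the 8 passed 4-fold in any of the 3 comparisons, as was so for 82.1% of all detected genes. Their differences ran between -0.77 and 0.71 for FRC minus LEC and between -1.04 and 1.00 for FRC minus BEC. On chromosome 10, Dcn and Lum lie 55.0 kb apart, and the nearby small proteoglycan gene Epyc was 4.79-fold higher in FRC than in LEC and 4.96-fold higher than in BEC. Kera, between Lum and Epyc, was well above background on no array. On chromosome 1, Fmod was called and its neighbour Prelp, 137 kb away across the outer ends of the probes, was not. Of 9 other names near them, Chit1 (2.91 over LEC and 3.00 over BEC on the log2 scale) and Chi3l1 (at least 3.92 and at least 4.10) were also higher in FRC.

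**Figure D3:**
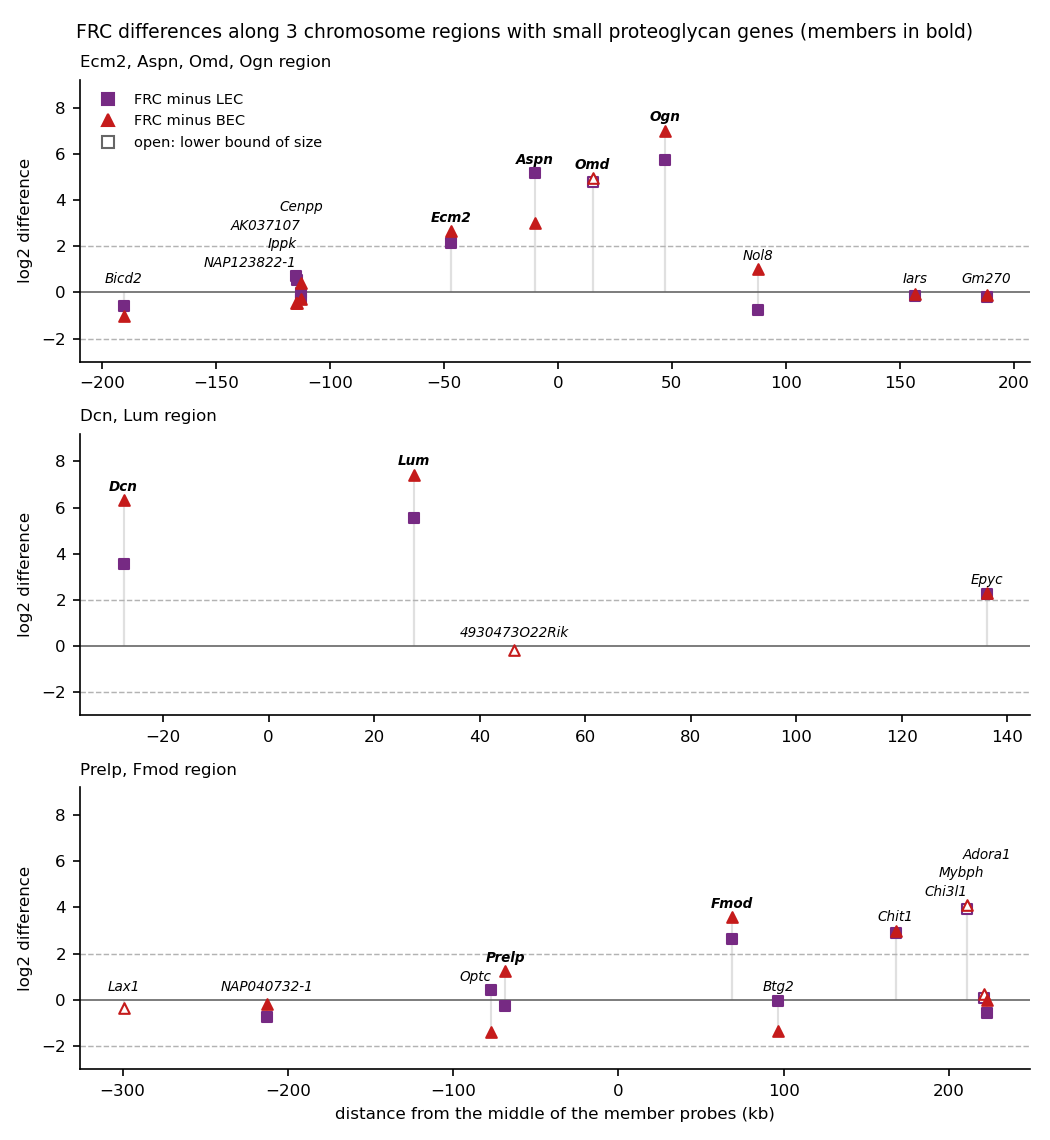
Each panel is 1 chromosome region, the horizontal axis is the distance from the middle of the member probes (kb), and the vertical axis is the log2 difference, FRC minus LEC (squares) and FRC minus BEC (triangles), with dashed lines at 4-fold. In the region of Ecm2, Aspn, Omd and Ogn the 4 members lie above the upper line and the 8 other detected names between the lines. Of all detected genes, 82.1% passed 4-fold in no comparison. Open symbols are lower bounds.

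The promoters of these 4 neighbours, which showed the FRC pattern together, are printed with those of Mmrn1 and Reln, which showed the reverse. Each covers 250 bases before and 50 after the gene's start, from RefSeq on GRCm38.p6, read 5′ to 3′ on the gene's strand. The strand is plus for all but Reln, which is on the minus strand. Positions are chr13:49504560-49504859 for Ecm2, chr13:49544193-49544492 for Aspn, chr13:49582212-49582511 for Omd, chr13:49607765-49608064 for Ogn, chr6:60944067-60944366 for Mmrn1 and chr5:22344656-22344955 for Reln. Capitals mark matches on either strand to one of 4 short motifs. The TATA box was searched as TATAAA and the GC box as GGGCGG. The letters CCAAT stood for the motif of that name, and TGANTCA for the binding site of the factor AP-1.
Ecm2: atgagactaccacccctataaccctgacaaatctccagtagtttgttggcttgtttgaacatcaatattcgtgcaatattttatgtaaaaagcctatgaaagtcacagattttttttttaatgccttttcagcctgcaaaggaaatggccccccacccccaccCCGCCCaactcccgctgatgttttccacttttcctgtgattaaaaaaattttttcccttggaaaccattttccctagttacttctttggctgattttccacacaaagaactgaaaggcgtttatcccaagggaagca
Aspn: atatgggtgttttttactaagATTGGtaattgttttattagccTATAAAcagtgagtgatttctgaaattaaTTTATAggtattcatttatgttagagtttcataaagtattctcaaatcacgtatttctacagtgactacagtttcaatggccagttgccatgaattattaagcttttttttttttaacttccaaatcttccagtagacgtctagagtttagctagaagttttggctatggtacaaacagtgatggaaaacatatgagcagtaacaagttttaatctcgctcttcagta
Omd: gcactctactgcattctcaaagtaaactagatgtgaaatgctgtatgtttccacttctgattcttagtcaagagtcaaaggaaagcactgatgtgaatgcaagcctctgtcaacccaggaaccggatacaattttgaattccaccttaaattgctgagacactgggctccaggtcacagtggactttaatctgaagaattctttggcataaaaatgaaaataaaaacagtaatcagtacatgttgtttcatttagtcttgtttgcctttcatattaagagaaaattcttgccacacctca
Ogn: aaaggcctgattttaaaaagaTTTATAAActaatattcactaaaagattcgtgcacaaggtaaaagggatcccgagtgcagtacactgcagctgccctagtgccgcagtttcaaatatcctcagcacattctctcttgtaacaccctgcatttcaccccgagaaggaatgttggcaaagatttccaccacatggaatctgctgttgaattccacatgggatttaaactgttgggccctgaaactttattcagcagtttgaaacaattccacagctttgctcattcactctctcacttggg
Mmrn1: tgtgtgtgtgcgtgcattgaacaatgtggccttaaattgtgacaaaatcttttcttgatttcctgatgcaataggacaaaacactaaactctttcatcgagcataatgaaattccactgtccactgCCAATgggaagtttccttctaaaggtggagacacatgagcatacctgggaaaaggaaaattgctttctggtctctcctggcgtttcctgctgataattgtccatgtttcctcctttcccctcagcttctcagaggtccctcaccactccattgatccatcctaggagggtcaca
Reln: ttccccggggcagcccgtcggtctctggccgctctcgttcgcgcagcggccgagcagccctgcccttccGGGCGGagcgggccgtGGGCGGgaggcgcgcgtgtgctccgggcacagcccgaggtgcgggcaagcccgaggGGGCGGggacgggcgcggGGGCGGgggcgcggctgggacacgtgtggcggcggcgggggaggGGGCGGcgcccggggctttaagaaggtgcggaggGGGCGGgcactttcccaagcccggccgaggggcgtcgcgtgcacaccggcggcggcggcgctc
Omd held none of the 4 motifs in its window, and the others held different ones. Ecm2 had a GC box on the minus strand 87 bases before the start. Aspn had a CCAAT box 229 bases before it and TATAAA matches 207 and 178 bases before it, and in Ogn 2 TATAAA matches on opposite strands overlapped at 229 and 227 bases. Mmrn1 had a CCAAT box 124 bases before the start, and Reln had 6 GC boxes between 181 and 13 bases before it. The windows of Ecm2, Aspn, Omd and Ogn held 4, 3, 1 and 4 CpG dinucleotides and that of Mmrn1 held 3, while that of Reln held 47. The median over all 32851 promoters was 7. Of the 50 genes, 37 matched the promoter table, with 48 promoters. Some genes had more than 1 promoter window, and windows of 1 gene could overlap, as for Efemp2, so shared bases were counted more than once. GC boxes occurred in 52.1% of the 48 and 35.7% of all promoters, TATA boxes in 22.9% and 13.6%, CCAAT boxes in 33.3% and 37.4%, and AP-1 sites in 8.33% and 7.81%. A match is a string of letters and not a shown binding site.

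The hyaluronan group was split between genes measured in FRC and genes near or below background on all arrays. Has2, the main hyaluronan synthase of fibroblasts, read 1.94 in FRC and -1.34 in LEC, a 9.71-fold difference, and was not well above background in BEC, at least 80.0-fold below FRC. Has1, another synthase, read -0.93 in FRC and was not well above background in LEC or BEC, at least 9.36-fold and at least 10.9-fold below. Vcan, versican, a large proteoglycan that binds hyaluronan, read 0.38 in FRC, -3.93 in LEC and -2.58 in BEC, 19.9-fold over LEC and 7.83-fold over BEC. Its LEC intensity of 17.6 was near the lowest one well above background, 14.6. Over the alternative scalings and background correction, its FRC minus LEC difference ran from 2.40 to 4.85. So the 3 called genes of this group, of 6, were all higher in FRC. Of all genes, 5.93% were at least 4-fold higher in FRC than in LEC and 7.57% than in BEC.

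Acan, aggrecan, best known from cartilage, read -3.87 in FRC, -2.53 in LEC and -2.75 in BEC, with LEC 2.53-fold and BEC 2.17-fold over FRC. Ncan, a proteoglycan of the nervous system, and Hapln1, a link protein, were not well above background on any array. Hapln1 and Vcan are neighbours on chromosome 13, with probes 48.6 kb apart across their outer ends.

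A further list held 17 hyaluronan genes, mostly of receptors, binding and breakdown. It also held the link protein genes Hapln2, Hapln3 and Hapln4, the proteoglycan gene Bcan and the synthase gene Has3. Of these 17, 2 were at least 4-fold higher in FRC than in LEC, beside 5.93% of all genes, and 5 in LEC, beside 4.89%. For FRC against BEC, 2 were at least 4-fold higher in FRC, beside 7.57%, and 4 in BEC, beside 6.58%. Bcan was one of the 5 and Has3 one of the 4. Lyve1, which binds hyaluronan on lymphatic vessels, read -0.94 in FRC, 6.87 in LEC and 3.09 in BEC, 224-fold higher in LEC than in FRC. For Stab2, a scavenger receptor that takes up hyaluronan, LEC were 104-fold over FRC and 15.4-fold over BEC. Cd44, another hyaluronan receptor, ran the other way, 4.55-fold higher in FRC than in LEC and 8.59-fold higher than in BEC. Tnfaip6, which transfers heavy chains to hyaluronan, was 27.0-fold higher in FRC than in LEC and 68.2-fold higher than in BEC. Synthases Has1 and Has2 were thus highest in FRC, as was the receptor Cd44, while the receptors Lyve1 and Stab2 were highest in LEC. The remaining synthase, Has3, was not well above background in FRC, and BEC exceeded FRC by at least 9.04-fold.

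Of the 10 adhesive and matricellular genes, 4 were at least 4-fold higher in FRC than in LEC and 1 in LEC. The shares of all genes were 5.93% and 4.89%. Against BEC, 8 were at least 4-fold higher in FRC, beside 7.57% of all genes. With 1 gene, the LEC count is too small to set apart from the share of all genes. Tnxb, tenascin-X, a collagen-binding protein of loose connective tissue, read 5.72 in FRC, 0.95 in LEC and -0.77 in BEC, 27.4-fold over LEC and 90.3-fold over BEC. Tnc, tenascin-C, a tenascin of remodelling tissue and lymphoid stroma, read 0.90 in FRC, 5.05 in LEC and 1.72 in BEC. LEC were 17.7-fold over FRC and 10.1-fold over BEC for Tnc, and FRC were 1.76-fold below BEC. The tenascins were therefore highest on different arrays, Tnxb in FRC and Tnc in LEC.

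Postn, periostin, which helps collagen crosslinking, read 6.45 in FRC, 4.91 in LEC and 0.84 in BEC. FRC were 2.91-fold over LEC and 48.7-fold over BEC, and LEC were 16.8-fold over BEC. Fn1, fibronectin, the adhesive protein on which much other matrix assembles, read 3.07 in FRC, 2.48 in LEC and 0.09 in BEC, 1.51-fold over LEC and 7.88-fold over BEC. Spp1, osteopontin, an integrin ligand, read 2.27 in FRC, 1.55 in LEC and 0.14 in BEC, 1.65-fold over LEC and 4.36-fold over BEC. For these 3, FRC and LEC differed less than either did from BEC. The BEC signals of Fn1 and Spp1, each spotted 10 times, had SDs between spots of 0.122 and 0.037.

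Vtn, vitronectin, an adhesive protein also found in plasma, read 5.43 in FRC, 1.02 in LEC and 0.93 in BEC, 21.4-fold over LEC and 22.7-fold over BEC. The thrombospondins, which bind matrix proteins and growth factors, did not share 1 pattern. Thbs3 read 3.72 in FRC, -0.75 in LEC and -1.84 in BEC, 22.2-fold over LEC and 47.3-fold over BEC. Thbs2 read 1.52 in FRC, -1.25 in LEC and -2.56 in BEC, 6.80-fold over LEC and 16.9-fold over BEC. Thbs4 read 1.10 in FRC, -0.57 in LEC and -2.81 in BEC, 3.19-fold over LEC and 15.1-fold over BEC. Thbs1, the thrombospondin of platelets and activated stroma, had its lowest level in FRC, 0.90, against 1.76 in LEC and 1.88 in BEC, less than 4-fold in every comparison. Comp, the remaining thrombospondin and not one of the 50, read -4.24 in FRC, 0.85 in LEC and 1.72 in BEC, so LEC were 34.1-fold and BEC 62.3-fold over FRC. On the brightest probes, FRC were thus highest for Thbs2, Thbs3 and Thbs4 and lowest for Thbs1 and Comp. For Thbs1 the margin was 1.81-fold against LEC and 1.97-fold against BEC. Its further probes gave -0.10 and -0.0002 for FRC minus BEC, and -1.36 and -0.90 for FRC minus LEC. FRC and BEC were thus nearly level for Thbs1 on those probes.

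Of the 10 other matrix glycoproteins, 7 were at least 4-fold higher in FRC than in LEC and 2 in LEC. The shares of all genes were 5.93% and 4.89%. Against BEC, 9 were at least 4-fold higher in FRC and 1 in BEC, beside 7.57% and 6.58% of all genes. With 1 gene, the BEC count is too small to set apart from the share of all genes. Clec3b, tetranectin, a plasminogen-binding protein, read 7.21 in FRC, 1.62 in LEC and -0.73 in BEC, 47.9-fold over LEC and 245-fold over BEC. Vit, vitrin, read 4.93 in FRC, -0.93 in LEC and -3.45 in BEC, 57.7-fold over LEC and 333-fold over BEC. Matn2, a matrilin that links other matrix proteins, read 4.37 in FRC and -0.89 in LEC, 38.6-fold over LEC and 41.4-fold over BEC, with the endothelia 1.07-fold apart. All 3 were well above background on every array, so these folds are measured on both sides. For Vit the BEC intensity was only 32.9, where the lowest one well above background was 17.4. Over the alternative scalings and background correction, its FRC minus BEC difference ran from 6.77 to 9.76. The further Vit probe differed by at least 1.80 for FRC minus LEC and at least 1.98 for FRC minus BEC.

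The sushi-repeat proteins Srpx and Srpx2 were not well above background in BEC. Srpx read 2.02 in FRC and -3.95 in LEC, 63.0-fold over LEC and at least 84.5-fold over BEC. Its LEC intensity of 17.3 was near the lowest one well above background, 14.6. Over the alternative scalings and background correction, its FRC minus LEC difference ran from 3.92 to 6.51. Srpx2 read 2.22 in FRC and -2.69 in LEC, 30.0-fold over LEC and at least 96.7-fold over BEC. Ecm1, a secreted protein of skin and connective tissue, read 4.95 in FRC, 0.62 in LEC and 2.61 in BEC, 20.0-fold over LEC and 5.04-fold over BEC. Matn4, a further matrilin, read -1.70 in FRC and -3.40 in LEC, 3.26-fold over LEC and at least 6.40-fold over BEC, where it was not well above background. Ecm1 was lowest in LEC and the other 3 in BEC.

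Coch and Reln stood against this direction. Coch, cochlin, a protein of the inner ear that is also known from lymphoid follicles, read 0.98 in FRC, 3.92 in LEC and -2.14 in BEC. LEC were 7.67-fold over FRC, FRC were 8.66-fold over BEC, and LEC were 66.4-fold over BEC. Reln, reelin, a neuronal guidance protein also made by lymphatic endothelium, was not well above background in FRC and read 2.20 in LEC and -1.60 in BEC. LEC were at least 92.7-fold and BEC at least 6.66-fold over FRC, and LEC were 13.9-fold over BEC. The 10 repeat spots of the Reln probe had SDs of 0.041 in LEC and 0.068 in BEC. Reln was also one of the 6 markers used for LEC, so its level in LEC is no independent finding. Of these 6, 5 had a higher level in BEC than in FRC and 1, Pdpn, a lower one. Prox1 was 8.27-fold and Lyve1 16.3-fold higher in BEC than in FRC. Both were higher still in LEC, 16.5-fold and 13.8-fold over BEC. The part of LEC transcripts in the BEC values of Reln and Mmrn1 was not tested.

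Between LEC and BEC, the 13 members at least 4-fold higher in LEC were Mfap5, Emilin1, Mmrn1, Dcn, Has2, Fn1, Tnc, Postn, Thbs4, Vit, Coch, Reln and Clec3b. For 8 of these 13, FRC were higher still: Mfap5, Dcn, Has2, Fn1, Postn, Thbs4, Vit and Clec3b. Only Emilin1, Mmrn1, Tnc, Coch and Reln had their highest level in LEC. The FRC-like markers also leaned to LEC, with a median LEC minus BEC difference of 1.53 on the log2 scale over 8 genes. Pdgfrb went the other way, 3.92-fold higher in BEC. Pdpn, also on that list, encodes gp38, by which LEC and BEC were sorted apart. The part of the FRC-like markers in the LEC values of the members was not tested. Aspn, 4.48-fold lower in LEC than in BEC, and Fbln2 ran the other way. The summed signal of 9 pericyte and smooth muscle markers was 96.4 times the 75th percentile in FRC, 74.8 in LEC and 137 in BEC. Of these 9, 7 were higher in BEC than in LEC and 2 in LEC. Their part in the Aspn and Fbln2 values was not tested.

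The 29 members called over both endothelia were chosen by the 4-fold threshold, which by itself caps the signal left there. What varied was how far below that each one lay. In LEC, the 26 that were well above background had between 1.59% (Srpx) and 22.5% (Ecm2) of the FRC signal, with a median of 4.08%. The LEC intensity of Srpx, 17.3, lay near the lowest one well above background, 14.6, so its percent is limited by background. In BEC, 21 were well above background and had between 0.300% (Vit) and 19.8% (Ecm1), with a median of 2.12%. The BEC intensity of Vit was 32.9, where the lowest one well above background was 17.4. The 6 FRC markers called by the same threshold had 1.56% (Pdgfra) to 7.49% (Ccl19) and a median of 5.45% in LEC, and 0.401% (Pdgfra) to 22.4% (Pdgfrb) and a median of 1.81% in BEC. Srpx, Vit, Ogn and Fbln1 had less than 2% of the FRC signal in LEC, near Pdgfra, and Efemp2, Fmod, Thbs2, Fbn1 and Ecm2 had more than 14%, above the 6 markers. Whether these low signals came from FRC among the sorted endothelial cells was not tested. Markers of mesothelium were higher in FRC too, with summed signals of 11.4 in FRC, 4.40 in LEC and 2.74 in BEC times the 75th percentile, and with 7, 6 and 5 of 7 genes well above background. Their part in the FRC values was not tested.

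**Figure D4:**
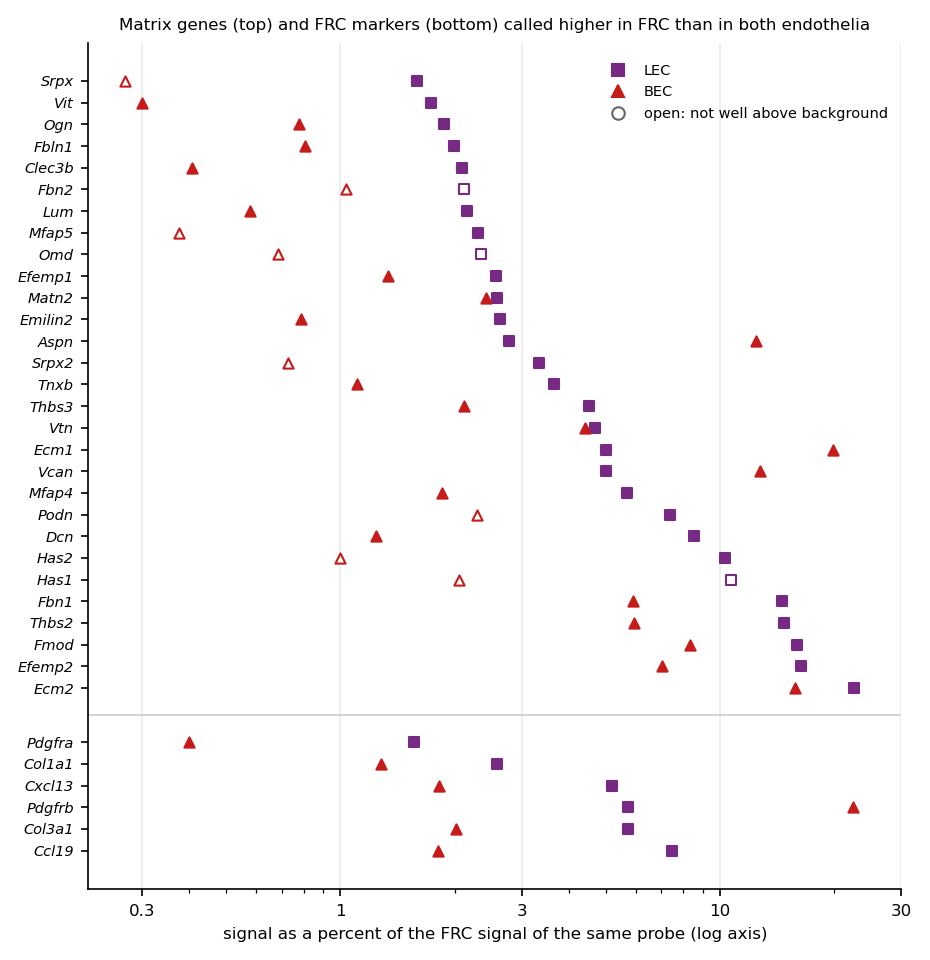
The signal of each gene in LEC (squares) and BEC (triangles) is given as a percent of its FRC signal on the same probe (log axis), for the 29 matrix genes and 6 FRC markers at least 4-fold higher in FRC than in both endothelia. Values run from 0.300% to 22.5% among genes well above background; open symbols were not.

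Other probes gave a check within each array for the 22 members with several probes. Where a called gene had further probes well above background on 1 side or both, these had the sign of the call in 14 of 14 cases for FRC against LEC, 14 of 14 for FRC against BEC and 7 of 7 for LEC against BEC. They also passed 4-fold in 10, 9 and 3 of these cases. The sizes could differ widely. The further Ecm1 probe differed by 0.82 between FRC and LEC, against 4.32 on the brightest, and the further Thbs4 probe by 0.41 between FRC and BEC, against 3.92. For Tnxb, FRC minus LEC was 1.74 on the further probe and 4.78 on the brightest. For Prelp the further probe gave -1.63 for FRC minus LEC, against -0.28 on the brightest. Both further Tnc probes were well above background in LEC and in neither FRC nor BEC. With normexp background correction, the calls of Has1 over both endothelia, of Bgn, Spp1 and Matn4 over BEC and of Reln in BEC over FRC fell under 4-fold, and the fibulin, lumican and multimerin calls did not.

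**Figure D5:**
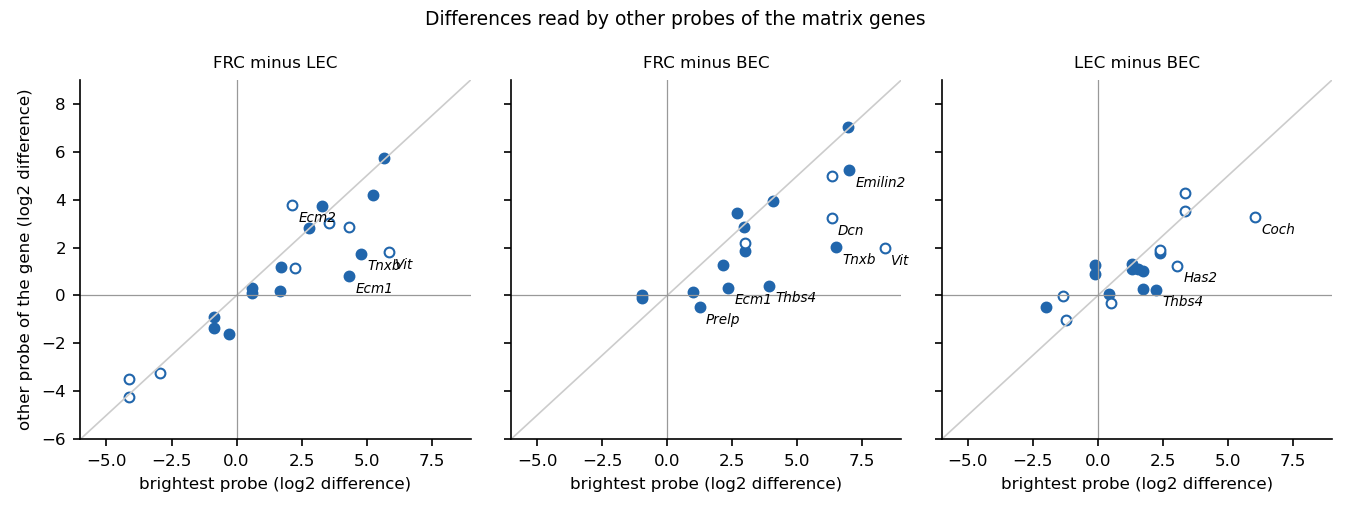
Each point is a further probe of a matrix gene, with the log2 difference on the gene's brightest probe on the horizontal axis and that on the further probe on the vertical axis, for the 3 comparisons. All probes of called genes lie in the quadrants of equal sign, and Ecm1, Tnxb, Thbs4 and Vit lie well off the diagonal; open symbols are lower bounds.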

How the data were processed

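Cells of 3 populations (FRC, LEC and BEC) were each measured on 1 single-colour Agilent mouse array, all on 1 slide. Per the labels' protocols, 30 to 50 ng of total RNA per sample went through 1 round of amplification and labelling with an Alexa Fluor dye. The submitters' processing notes name Agilent Feature Extraction 10.7.3.1 as the source of the deposited spot intensities. These intensities were background-subtracted and detrended within each array, per the file headers, which also place the probes on mm9. The authors' series matrix values, deposited as intensity scaled between arrays, served as an alternative. The flags for background, saturation and outliers were used as the authors deposited them.

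From these, spots of 1 probe were averaged, 18 probes with outlier marks and all control spots were left out, and 41156 probes remained. Each level is the log2 of the processed signal minus the array's 75th percentile, whose intensity was 387 in FRC, 268 in LEC and 361 in BEC. The lowest intensity well above background was 19.1 in FRC, 14.6 in LEC and 17.4 in BEC. Signals of 60.5%, 59.7% and 60.1% of probes were well above background on those arrays. No spot of a gene was saturated. The number of arrays, 1 per population, limits the precision. A gene's brightest probe by mean log2 signal stood for it, and at least 1 array of a pair had to be well above background. Calls were made at 4-fold (2 on the log2 scale) with no test. All 50 members were named; of the 6 neighbouring gene lists, those with the largest differences measured on both sides and the largest bounds. The members, the lists and the markers were chosen with earlier results of these data known. Further names, used as values in passing, were chosen after their values were seen. Array names such as Nov, Wisp1, Ctgf and Tmem2 are those of the array's design. The promoters came from RefSeq (GRCm38.p6). The calling was tested on simulated data. Python 3.11.15, numpy 2.4.6, pandas 2.3.3, matplotlib 3.10.9, R 4.3.3 and limma 3.58.1 were used. The alternatives covered scaling, background correction, probe choice, dim probes, thresholds and gene names.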

Additional observations from a re-analysis of the deposited data

How the results depend on the processing

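No result had a test, so a change here is a change of side at the threshold or of size. Of the 92 member calls, none changed sign under any alternative. All 92 were kept with the median, quantile, authors' matrix or spike-in slope scaling, without the filter on dim probes, with measured values in place of bounds, at a 2-fold threshold, with outlier-marked spots kept and with updated gene names. Without scaling 89 were kept, with the median over a gene's probes 86, with normexp background correction (offset 50) 81 and at 8-fold 64. The member counts of the FRC comparisons stayed within 1.5 times of those given under every alternative. For LEC against BEC, the 13 higher in LEC became 26 at 2-fold and 5 at 8-fold, and the 2 higher in BEC became 1 with normexp, 5 at 2-fold and 0 at 8-fold. The median over members ran between 2.42 and 3.74 for FRC minus LEC, between 2.78 and 4.52 for FRC minus BEC, and between 0.87 and 1.31 for LEC minus BEC. Normexp gave the lowest of each. Without scaling, Fn1, Thbs4 and Clec3b no longer passed 4-fold in LEC over BEC, and the median of all genes moved to 0.50 for FRC minus LEC and -0.49 for LEC minus BEC. Normexp ended the LEC over BEC calls of Mfap5, Has2, Thbs4 and Vit and the BEC call of Aspn. The median over probes ended those of Fbln5 (FRC over LEC), Mfap2, Ecm1 (FRC over BEC), Fn1 (both over BEC) and Thbs4 (LEC over BEC). The cause was not tested.

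Counts of the neighbouring lists were small and moved. For FRC against LEC, the 5 other matricellular genes higher in FRC were 8 without scaling, 9 after division by the spike-in slope and 2 with updated gene names (the list holds the array's names, so renamed genes leave it), and the 3 chain synthesis genes were 6 without scaling. With normexp, the 1 and 2 other small proteoglycans higher in FRC and in LEC were 0 and 0, and the 5 ADAMTS genes higher in FRC were 3. For FRC against BEC, the 6 matricellular genes higher in FRC were 3 with updated gene names, and with normexp the 5 ADAMTS genes were 3 and the 1 small proteoglycan 0. Counts over all genes moved too. In FRC against LEC, the 1094 higher in FRC and 902 higher in LEC were 639 and 554 with normexp, 1559 and 611 without scaling, 1389 and 1380 after division by the spike-in slope, 2459 and 2397 at 2-fold and 583 and 449 at 8-fold. In FRC against BEC, the 1426 and 1240 were 861 and 747 with normexp, 3104 and 3158 at 2-fold and 748 and 631 at 8-fold. In LEC against BEC, the 622 and 620 were 289 and 325 with normexp, 391 and 939 without scaling, 1019 and 876 without the filter on dim probes, 2009 and 1864 at 2-fold and 201 and 251 at 8-fold. No paired analysis was possible because each population has 1 array. Signal over background limits the 14 bounds in the FRC comparisons, where the dimmer array gives no measured level.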

Other observations

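Genes around the 50 were called in both directions. The shares of all genes to set beside the counts below are 5.93% in FRC and 4.89% in LEC for FRC against LEC. For FRC against BEC they are 7.57% in FRC and 6.58% in BEC. Between the endothelia they are 3.39% in LEC and 3.38% in BEC. Among 19 other matricellular proteins, 5 were at least 4-fold higher in FRC than in LEC and 1 in LEC. Against BEC, 6 were at least 4-fold higher in FRC and 1 in BEC. Of the 19, 15 could be compared in each of these comparisons. The 1 gene in each endothelial direction is too few to set apart from the shares of all genes. Smoc2, a calcium-binding matricellular protein, read 2.79 in FRC and -3.13 in LEC, a 60.7-fold difference, and was at least 144-fold higher in FRC than in BEC. Mgp, matrix Gla protein, an inhibitor of calcification, was 24.6-fold higher in FRC than in LEC and 8.22-fold higher than in BEC. Nov was 22.3-fold higher in FRC than in LEC and 4.13-fold higher than in BEC. Wisp1 was at least 20.1-fold higher in FRC than in LEC. Sparcl1, an anti-adhesive relative of SPARC, read 5.92 in FRC and 7.88 in BEC, and was 14.7-fold lower in LEC than in BEC. Between the endothelia, 1 of the 19 was at least 4-fold higher in LEC and 3 in BEC. Smoc2, Mgp and Nov thus shared the FRC direction of most of the 50, and Comp and Sparcl1 did not.

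Of 9 ADAMTS enzymes that cleave proteoglycans, 5 were at least 4-fold higher in FRC than in each endothelium and 1, Adamts9, was at least 4-fold lower. Adamts5 was 8.74-fold higher in FRC than in LEC and 29.5-fold higher than in BEC. Adamts15 was 27.9-fold and 10.9-fold higher, and Adamts20 at least 17.1-fold and at least 19.4-fold higher, in the same order. For Adamts9, LEC were 9.95-fold and BEC 13.7-fold over FRC. Among 22 genes that build chondroitin and dermatan sulphate chains, 3 were at least 4-fold higher in FRC than in LEC and none in LEC. For FRC against BEC these counts were 3 and 1. Chpf, a chondroitin polymerising factor, was 16.2-fold higher in FRC than in either endothelium, and Dse, an epimerase that makes dermatan sulphate, was at least 23.8-fold higher in FRC than in BEC. Among 11 other small proteoglycans, 1 (Epyc) was at least 4-fold higher in FRC than in LEC, and 2, Podnl1 (4.20-fold) and Spock3 (at least 9.63-fold), were higher in LEC. None of these 3 passed 4-fold with normexp background correction.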
